A study of Mus musculus with 6 samples.

Results

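Interleukins are secreted proteins through which immune and epithelial cells signal to one another, and 83 of the 55809 gene rows in a count table of mouse mammary carcinoma cells carry an interleukin name (a symbol beginning with Il and a digit, Il34 left aside). By role these are 37 ligand genes, 40 receptor genes, 4 genes of antagonists or binding proteins and 2 genes that are neither, Il4i1 and the antisense transcript Il1bos. The cells were of the line 410.4 and were grown for 2 days either in medium in which neutrophil extracellular traps had been isolated (NETs, 3 libraries) or in control medium (3 libraries, abbreviated Veh in the titles). Both media were DMEM with 0.5% serum, and no other treatment, genotype or clone is named. Neutrophils release such traps as strands of chromatin studded with proteins of their granules, and the title of the series sets the question as their effect on TGF-beta activation in metastatic breast cancer cells. The design compares a single cell line in 2 media, so an effect of the traps cannot be told apart from any other difference between the media.

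An interleukin acts on a cell only where the chains of its receptor are present. The IL-1 family (IL-1 alpha and beta, IL-18, IL-33 and the IL-36 cytokines) signals through paired receptor chains with a cytoplasmic TIR domain and the adaptor MyD88. IL-6 and IL-11 share the signalling chain gp130, the product of Il6st, whereas IL-4 and IL-13 share the chain encoded by Il4ra, and both groups signal through JAK kinases and STAT factors. IL-17 receptors signal through the adaptor Act1, and several interleukin receptors also exist as decoys that bind the ligand without signalling.

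The libraries held 31119105 to 64431811 counts. A gene with no count in a library could lie as high as 0.0902 to 0.199 CPM there, the value of 3 sequenced fragments (counted as 6 because both mates of a pair appear to have been counted), a limit that covers counting error only. CPM below is the count scaled to library size, with a TMM factor that evens out library composition. The epithelial markers Epcam, Krt8, Krt18, Krt19 and Cdh1 summed to between 3064 and 3268 CPM with NETs and between 3255 and 3472 CPM in control medium. Of these Krt8 rose and Krt18 and Cdh1 fell, by 0.25, 0.27 and 0.14 on the log2 scale. Of 4 fibroblast markers Thy1 had no count in any library, Pdgfrb had at most 0.0664 CPM, Pdgfra averaged 49.2 ± 2.13 CPM with NETs and 45.4 ± 3.37 CPM in control medium, and Col1a1 rose to 16.1, 11.2 and 12.8 CPM with NETs, against 1.32, 1.15 and 1.07 CPM in control medium (adjusted p = 2.34e-11 in edgeR). Of 11 neutrophil markers, 8 had no count in any NETs library (Ly6g, Mpo, Elane, Camp, Ngp, Csf3r, Cd177 and Itgam), and of 7 markers of other leukocytes 5 had none there (Ptprc, Cd3e, Cd3d, Adgre1 and Lyz2), while in control medium 5 of the neutrophil markers and 2 of the others had no count. The neutrophil markers summed to between 2.98 and 3.37 CPM with NETs and between 1.62 and 2.23 CPM in control medium, most of it S100a8, which rose (2.79, 2.59 and 2.50 CPM with NETs, against 1.26, 1.73 and 1.16 CPM in control medium, adjusted p = 0.00136 in edgeR). Cxcr2 had 0.535, 0.598 and 0.310 CPM with NETs, against 0.241, 0.221 and 0.200 CPM in control medium, without passing (adjusted p = 0.0575 in edgeR). Ly6g had 8, 6 and 6 counts in control medium. The labels do not say that the 3 libraries of a group came from separate cultures, so the p-values rest on a spread that may be technical.

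With NETs, the cells carried more message for both chains of the IL-18 receptor (Il18rap and Il18r1), for 3 chains that bind IL-4 or IL-13 (Il4ra, Il13ra1 and Il13ra2), for the IL-33 receptor chain Il1rl1, for Il1r1 and for Il2rb, the beta chain of the IL-2 and IL-15 receptors. They carried less for 1 chain each of the receptors of IL-6 (Il6ra), IL-15 (Il15ra), IL-17 (Il17ra) and IL-22 (Il22ra1), and for Il1rap, an accessory chain of several IL-1 family receptors. Among the ligands Il11 rose, and the epithelial alarmin genes Il33, Il36a and Il36g fell. The most abundant ligand genes, Il1a, Il23a and Il24, lay within 0.05 log2 units of their control levels. Of the 83 genes 37 passed the filter on low counts, and 9 of them rose and 9 fell at an adjusted p of 0.05 (quasi-likelihood test of edgeR, Benjamini-Hochberg over all 13956 genes tested). That is 48.6% of the tested members, where 38.9% of all tested genes passed (20.2% higher and 18.7% lower). Changes of at least 2-fold were made by 12 of them, 7 higher and 5 lower, which is 32.4% of the tested members where 5.95% of all tested genes passed with such a change (3.65% higher and 2.31% lower). The median log2 fold change was 0.05 over the 37 members and -0.00385 over all tested genes, and the median size of the change regardless of direction was 0.42 against 0.19. The filter asked for 3 libraries over 0.203 CPM. Il18r1 met it through the NETs libraries alone and Il36g through the control libraries alone, so both had to differ. In Il1rl1, Il11ra1, Il33 and Il1bos 1 or 2 libraries of the lower group were over that level. In the 31 members with all 6 libraries over it, 7 rose and 7 fell (45.2%), 8 of them by 2-fold or more (25.8%), where 40.8% of all genes of that kind passed and 4.58% did so by 2-fold or more. Scaled by library size alone, 8 members rose and 9 fell, while over all genes the split moved to 2106 higher and 3763 lower, against 2825 higher and 2605 lower with TMM.

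**Figure D1:**
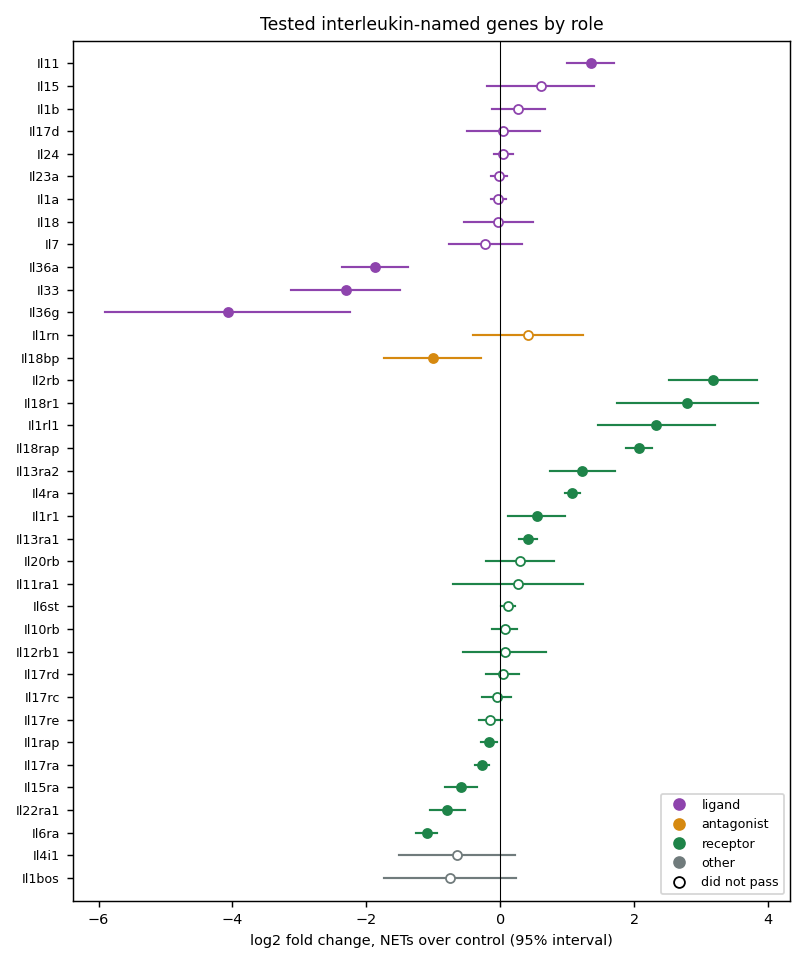
Log2 fold change (NETs over control medium) with its 95% interval for the 37 tested genes, grouped by role from ligands at the top to the 2 other genes at the bottom; filled points passed the test. The receptor genes spread from -1.10 (Il6ra) to 3.18 (Il2rb), and the 3 ligand genes that fell lie at or below -1.87.

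The promoters of 5 genes are shown because their changes were the largest among members that passed the test, averaged at least 1 CPM and have an entry in the RefSeq promoter table (build GRCm38.p6), which covers 63 of the 83 members. Each run is the 250 bases before the annotated start, 5′ to 3′ on the strand of the gene, and where a gene has several starts the outermost is used. Capitals mark matches on either strand to the AP-1 motif TGACTCA, the SMAD motif CAGAC, the STAT motif TTCNNNGAA or the NF-kB motif, and no match overlapped another.
Il18rap (chr1:40515112-40515361, plus strand): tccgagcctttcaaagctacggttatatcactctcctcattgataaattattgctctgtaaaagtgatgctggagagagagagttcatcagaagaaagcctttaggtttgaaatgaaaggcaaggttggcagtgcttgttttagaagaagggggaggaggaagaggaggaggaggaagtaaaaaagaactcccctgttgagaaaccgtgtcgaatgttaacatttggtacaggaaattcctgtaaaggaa
Il11 (chr7:4782858-4783107, minus strand): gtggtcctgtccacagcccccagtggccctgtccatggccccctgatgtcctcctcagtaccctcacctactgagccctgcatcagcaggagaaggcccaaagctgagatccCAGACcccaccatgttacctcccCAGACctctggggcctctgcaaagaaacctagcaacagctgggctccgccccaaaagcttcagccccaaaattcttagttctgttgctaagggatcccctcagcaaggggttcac
Il13ra2 (chrX:147429193-147429442, minus strand): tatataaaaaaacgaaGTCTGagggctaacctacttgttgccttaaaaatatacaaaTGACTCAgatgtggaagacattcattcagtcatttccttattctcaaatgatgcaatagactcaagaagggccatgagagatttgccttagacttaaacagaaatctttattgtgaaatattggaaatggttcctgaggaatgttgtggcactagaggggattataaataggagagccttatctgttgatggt
Il6ra (chr3:89913197-89913446, minus strand): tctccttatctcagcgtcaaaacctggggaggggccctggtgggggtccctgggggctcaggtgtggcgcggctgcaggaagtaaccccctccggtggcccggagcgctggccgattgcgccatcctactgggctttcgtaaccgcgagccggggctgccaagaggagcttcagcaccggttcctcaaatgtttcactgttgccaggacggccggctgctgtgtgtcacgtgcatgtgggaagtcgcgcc
Il4ra (chr7:125552021-125552270, plus strand): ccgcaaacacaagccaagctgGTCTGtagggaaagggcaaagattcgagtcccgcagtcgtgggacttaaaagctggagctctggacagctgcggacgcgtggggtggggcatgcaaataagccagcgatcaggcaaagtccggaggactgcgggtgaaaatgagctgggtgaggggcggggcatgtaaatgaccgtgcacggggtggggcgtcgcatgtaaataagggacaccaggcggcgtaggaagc
The Il11 window held 2 SMAD matches, the Il13ra2 window 1 SMAD match and 1 AP-1 match, and the Il4ra window 1 SMAD match, while the windows of Il18rap and Il6ra held no match to any of the 4 motifs. The same 250-base windows of all entries hold the SMAD motif in 42.2% of 32851 cases, the AP-1 motif in 4.46%, the STAT motif in 7.02% and the NF-kB motif in 7.25%. A match describes the letters of the window and no more.

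Among the ligands the largest rise was that of Il11, which encodes a gp130 cytokine known for its induction by TGF-beta in other cells. Il11 stood at 4.80, 3.85 and 5.00 CPM with NETs, against 1.80, 1.59 and 1.98 CPM in control medium, and all 3 NETs libraries lay above all control libraries. The rise was 2.55-fold (log2 fold change 1.35 ± 0.16 SE, adjusted p = 4.61e-06 in edgeR). The receptor chain specific to IL-11, Il11ra1, was near the detection limit, at 0.223, 0.332 and 0.271 CPM with NETs and 0.271, 0.177 and 0.218 CPM in control medium, and it did not pass the test (95% interval of the log2 fold change -0.71 to 1.24). Il6, the founding member of this cytokine group, had 2, 0 and 2 counts with NETs and 0, 0 and 0 counts in control medium and was too low to test.

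Il33 encodes an alarmin of the IL-1 family that epithelial cells store in the nucleus and release on damage. It had 0.268, 0.465 and 0.155 CPM with NETs, against 1.83, 1.19 and 1.09 CPM in control medium, with no overlap between the groups. Its level was 4.97-fold lower with NETs (log2 fold change -2.31 ± 0.38 SE, adjusted p = 0.000126 in edgeR). The genes of 2 IL-36 cytokines, which stressed epithelium makes and which are known from skin inflammation, were lower as well. Il36a had 0.870, 0.531 and 0.814 CPM with NETs, against 2.57, 3.30 and 2.49 CPM in control medium, which is 3.66-fold lower (adjusted p = 5.31e-06 in edgeR). Il36g was read in a single NETs library, with 0, 2 and 0 counts with NETs against 24, 14 and 14 counts in control medium. It passed the filter on low counts through the control libraries alone and so had to come out lower. Summed over libraries and scaled for depth, its ratio of NETs to control was 0.0507, with an exact 95% interval from 0.00124 to 0.309 for counting error taken over fragments (adjusted p = 0.00121 in edgeR). Its fitted log2 fold change was -4.07 and moved to -7.04 without NETs replicate 2, the library that held its reads. Il36b, the gene of the other IL-36 agonist, had no count in any library.

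Il1a, the gene of IL-1 alpha, an alarmin active in its uncleaved form, was the most abundant ligand gene, at 330.1 ± 3.73 CPM per kb of exon with NETs and 337 ± 22.4 CPM per kb in control medium (mean ± SD, n = 3). It made up 82.5% ± 0.569 of the summed CPM of the ligand genes with NETs and 82.8% ± 0.445 in control medium (SD, n = 3). Per library Il1a had 652, 659 and 644 CPM with NETs and 644, 636 and 716 CPM in control medium, and the groups overlapped (95% interval of the log2 fold change -0.14 to 0.08). Il23a, which encodes the p19 subunit of IL-23, followed with 86.5, 97.0 and 91.7 CPM with NETs and 91.8, 88.5 and 98.8 CPM in control medium (95% interval -0.14 to 0.10). Its partner subunit gene Il12b had 2, 0 and 0 counts with NETs and 0, 0 and 0 counts in control medium, so p40 message was at or under the detection limit. Il24, a cytokine of the IL-10 family first described in melanoma cells, had 31.7, 31.7 and 36.1 CPM with NETs and 32.8, 30.9 and 32.8 CPM in control medium (95% interval -0.09 to 0.19). Together these 3 genes held 98.3% ± 0.0707 of the summed ligand CPM with NETs and 98.4% ± 0.136 in control medium (SD, n = 3).

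The remaining tested ligand genes were low and did not pass the test. Il1b, whose product must be cleaved by caspase-1, averaged 3.05 ± 0.237 CPM with NETs and 2.50 ± 0.648 CPM in control medium (95% interval of the log2 fold change -0.13 to 0.67). Il18, cleaved by the same enzyme, averaged 1.29 ± 0.143 CPM with NETs and 1.32 ± 0.225 CPM in control medium. The lymphocyte growth factors Il7 and Il15 averaged 1.07 ± 0.175 CPM and 0.540 ± 0.108 CPM with NETs, against 1.25 ± 0.204 CPM and 0.345 ± 0.0720 CPM in control medium. Il17d averaged 1.22 ± 0.149 CPM with NETs and 1.17 ± 0.264 CPM in control medium. In the case of Il15 all NETs libraries lay above all control libraries, while its adjusted p was 0.233 in edgeR and its interval ran from -0.20 to 1.40. In all 1 of 12 tested ligand genes rose and 3 fell, or 33.3%, near the 38.9% of all tested genes. All 4 changes were of 2-fold or more, which 5.95% of all tested genes made. Among the 10 ligand genes with all 6 libraries over 0.203 CPM, Il11 rose and Il36a fell. That is 20%, where 40.8% of all genes of that kind passed.

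Of the 4 genes for soluble inhibitors 2 were tested. Il18bp, whose product binds and neutralises IL-18, had 0.312, 0.498 and 0.543 CPM with NETs, against 1.02, 1.02 and 0.690 CPM in control medium (adjusted p = 0.0265 in edgeR). The groups did not overlap, but the adjusted p in edgeR was 0.112 without NETs replicate 1, 0.107 without control replicate 1 and 0.0786 without control replicate 2. Exons of Il18bp share up to 80 bases with Numa1 on the opposite strand, a gene at 355 CPM with NETs and 271 CPM in control medium, and whether reads were assigned by strand is unknown. Il1rn, the gene of the IL-1 receptor antagonist, averaged 0.523 ± 0.0668 CPM with NETs and 0.380 ± 0.140 CPM in control medium and did not pass the test (95% interval of the log2 fold change -0.40 to 1.24). Il36rn and Il22ra2 had at most 4 counts in any library. The other genes tested were Il4i1, an amino acid oxidase gene, at 0.342 ± 0.0985 CPM with NETs and 0.554 ± 0.207 CPM in control medium, and Il1bos, antisense to Il1b, at 0.228 ± 0.109 CPM with NETs and 0.380 ± 0.0187 CPM in control medium (adjusted p = 0.238 and 0.221 in edgeR). Exons of Il4i1 share up to 1227 bases with Tbc1d17 on the opposite strand (44.9 CPM with NETs and 41.9 CPM in control medium). They share up to 88 bases with Nup62 on the same strand (100 CPM with NETs and 105 CPM in control medium), so the level of Il4i1 is uncertain.

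**Figure D2:**
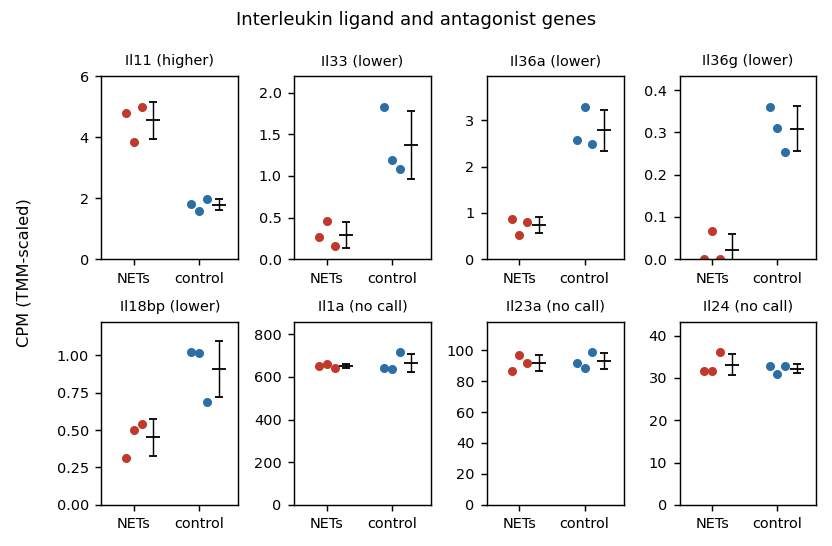
TMM-scaled CPM in each library (points) with mean and SD (bars) for 7 ligand genes and the antagonist gene Il18bp, NETs on the left and control medium on the right of each panel, each on its own linear axis from 0. Il11 is higher and Il33, Il36a, Il36g and Il18bp are lower in every NETs library, while Il1a, Il23a and Il24 overlap between the groups.

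Among 21 tested receptor genes 8 rose and 5 fell, 61.9% where 38.9% of all tested genes passed. Of the 18 with all 6 libraries over 0.203 CPM, 6 rose and 5 fell (61.1%), where 40.8% of all genes of that kind passed. The NETs and control libraries stood apart without overlap at each of the 18 members that passed and at 2 that did not, 54.1% of the tested members where the groups were apart at 49% of all tested genes. By family, 4 of 5 tested IL-1 receptor genes rose and 1 fell. The same counts held for the 5 tested receptor genes of IL-2, IL-4, IL-13 and IL-15 (Il2rb, Il4ra, Il13ra1, Il13ra2 and Il15ra). Without Il18r1 and Il1rl1, whose control libraries lay partly or wholly under 0.203 CPM, 2 IL-1 receptor genes rose and 1 fell. Bulk RNA cannot separate more message per cell from a larger share of cells that express the gene.

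Il18rap, the accessory chain of the IL-18 receptor, showed the largest rise among well expressed members. Its level was 90.2, 84.1 and 82.8 CPM with NETs, against 22.4, 16.9 and 21.8 CPM in control medium, 4.20-fold higher (log2 fold change 2.07 ± 0.09 SE, adjusted p = 2.85e-10 in edgeR). Il18r1, the chain that binds IL-18, was much lower in level, with 0.848, 0.399 and 0.737 CPM with NETs, against 0.0902, 0.0442 and 0.145 CPM in control medium. It passed the filter on low counts through the NETs libraries alone and so had to come out higher. It rose 6.93-fold (adjusted p = 0.000256 in edgeR), and its control level was near the detection limit. Per kb of exon Il18rap message thus exceeded Il18r1 message by 75.9, 151 and 80.2 times in the NETs libraries and by 177, 272 and 107 times in the control libraries. Both chains are needed for IL-18 signalling and are best known from T cells and natural killer cells. The leukocyte marker Ptprc and the T cell markers Cd3e and Cd3d had no count in the NETs libraries. In control medium Ptprc had 6, 2 and 8 counts, Cd3e 0, 0 and 2 counts and Cd3d none. Csf1r of the same marker list had 80.2 ± 5.30 CPM with NETs and 24.1 ± 1.43 CPM in control medium (adjusted p = 1.65e-12 in edgeR). The part of such cells in this result was not tested.

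Il1rl1, which encodes the IL-33 receptor ST2, rose 5.02-fold, to 0.848, 0.731 and 0.756 CPM with NETs, against 0.210, 0.0885 and 0.145 CPM in control medium (adjusted p = 0.000246 in edgeR). It passed the filter on low counts through its NETs libraries, as only 1 control library was over 0.203 CPM. The receptor gene of IL-33 was higher where its ligand gene, described above, was lower, both at levels under 2 CPM. Il1r1, the signalling receptor of IL-1 alpha and beta, had 2.07, 2.32 and 2.83 CPM with NETs, against 2.01, 1.53 and 1.42 CPM in control medium. Its call was marginal (log2 fold change 0.54 ± 0.20 SE, adjusted p = 0.0457 in edgeR), and it was lost in 10 of 16 alternative analyses, with adjusted p as high as 0.231 without NETs replicate 3. Il1rap, the accessory chain shared by the IL-1, IL-33 and IL-36 receptors, was abundant and fell slightly, to 113, 117 and 115 CPM with NETs, against 128, 119 and 139 CPM in control medium (log2 fold change -0.17 ± 0.06 SE, adjusted p = 0.0251 in edgeR). That call ended without NETs replicate 1, NETs replicate 3, control replicate 1 or control replicate 3 (adjusted p from 0.0648 to 0.126 in edgeR). The IL-36 receptor gene Il1rl2 and the decoy receptor gene Il1r2 had at most 2 counts in any library.

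The 4 tested IL-1 family receptor genes that rose lie in 1 cluster on chromosome 1, a grouping noticed after their values were seen. In the coordinates of the deposited table Il1r1 spans 40264240 to 40356417, Il1rl1 40468730 to 40504575, Il18r1 40504712 to 40540014 and Il18rap 40554522 to 40590865, each over exons and introns. The processing notes name mm10, yet only 11.6% of 38931 symbols overlap their GRCm38.p6 position, so these positions belong to a build that is not named. The 4 tested genes within 500 kb on either side were also higher. Slc9a4, a sodium-proton exchanger gene next to Il18rap, averaged 0.477 CPM with NETs and 0.0590 CPM in control medium, and as no control library was over 0.203 CPM it had to come out higher. The others rose less, Mfsd9 by 0.63, Rnf149 by 0.29 and Map4k4 by 0.16 on the log2 scale. Over all tested genes 20.2% were higher. Among genes with all 6 libraries over 0.203 CPM, Il1r1 and Il18rap rose in the cluster and 3 genes rose in its flanks. The 2 remaining genes of the cluster, Il1r2 and Il1rl2, were too low to test.

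**Figure D3:**
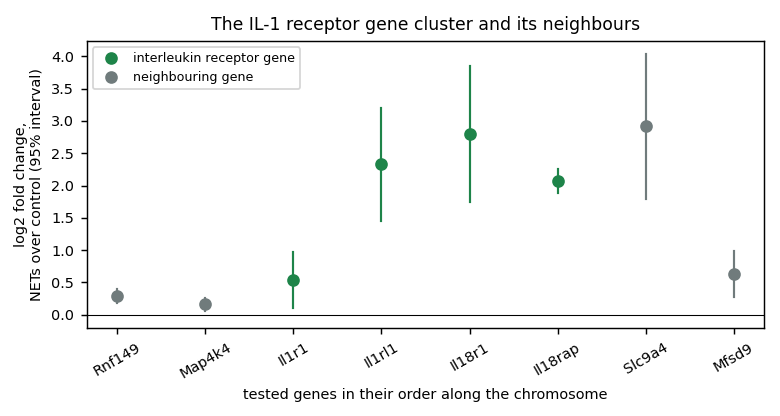
Log2 fold change (NETs over control medium) with its 95% interval for the 8 tested genes of the IL-1 receptor cluster and its flanks, in their order along the chromosome. All 8 lie above 0, from 0.16 for Map4k4 to 2.91 for Slc9a4; Slc9a4 and Il18r1 passed the filter on low counts through the NETs libraries alone and had to lie above 0.

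The receptor chains for IL-4 and IL-13 rose. Il4ra, which binds IL-4 and signals through STAT6, reached 82.0, 79.3 and 82.6 CPM with NETs, against 37.9, 39.0 and 39.1 CPM in control medium. The groups lay far apart relative to their spread, and the rise was 2.11-fold (log2 fold change 1.07 ± 0.05 SE, adjusted p = 4.57e-11 in edgeR). Il13ra1, its partner in the receptor found on epithelial cells, had 34.0, 31.4 and 32.2 CPM with NETs, against 23.5, 25.2 and 24.5 CPM in control medium (1.34-fold, adjusted p = 5.49e-05 in edgeR). Il4ra rose more than Il13ra1, so that the ratio of their messages per kb was 1.49, 1.56 and 1.59 in the NETs libraries and 0.996, 0.957 and 0.987 in the control libraries. Il13ra2, a second IL-13 receptor long described as a decoy, rose 2.34-fold at a low level, to 1.96, 2.99 and 2.27 CPM with NETs, against 0.962, 1.22 and 0.890 CPM in control medium (adjusted p = 0.000428 in edgeR). The ligand genes Il4 and Il13 had no count in any library. Stat6 averaged 139 ± 1.73 CPM with NETs and 151 ± 4.79 CPM in control medium and did not pass (adjusted p = 0.0616 in edgeR).

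Il2rb encodes the beta chain through which IL-2 and IL-15 signal, a chain best known from lymphocytes. It had 2.63, 1.66 and 2.60 CPM with NETs, against 0.210, 0.354 and 0.218 CPM in control medium, the largest fold change among the tested members that rose (9.04-fold, log2 fold change 3.18 ± 0.31 SE, adjusted p = 3.94e-07 in edgeR). The control libraries held only 14, 16 and 12 counts of Il2rb, near the filter level of 0.203 CPM, so the size of the fold change is uncertain. The common gamma chain gene Il2rg, its usual partner, had 3, 3 and 6 counts with NETs and 6, 6 and 4 counts in control medium, and Il2ra had at most 2 counts in any library. Il15ra, the chain that holds IL-15 at the cell surface, went the other way, to 6.16, 5.01 and 5.41 CPM with NETs, against 8.84, 8.56 and 7.59 CPM in control medium (log2 fold change -0.59 ± 0.12 SE, adjusted p = 0.000636 in edgeR). The leukocyte marker Ptprc had no count in any NETs library and 6, 2 and 8 counts in control medium. In contrast Csf1r, also listed as a leukocyte marker, rose to 77.7, 76.6 and 86.3 CPM with NETs, against 22.4, 24.8 and 25.1 CPM in control medium. The part of leukocytes in the Il2rb result was not tested either.

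Il6ra, the binding chain of the IL-6 receptor, fell most among the receptor genes. It had 22.4, 20.6 and 20.4 CPM with NETs, against 42.8, 49.8 and 43.6 CPM in control medium, and was 2.15-fold lower (log2 fold change -1.10 ± 0.07 SE, adjusted p = 2.21e-09 in edgeR). Il6st, the gp130 chain and the most abundant receptor gene per kb of exon, had 242, 225 and 248 CPM with NETs and 226, 216 and 217 CPM in control medium, overlapping between the groups (95% interval of the log2 fold change 0.01 to 0.22, adjusted p = 0.071 in edgeR). It passed the test with a replicate block and without NETs replicate 2 (adjusted p = 0.0464 and 0.0274 in edgeR). The message of Il6st per kb was 8.42, 8.52 and 9.47 times that of Il6ra in the NETs libraries and 4.12, 3.38 and 3.87 times in the control libraries. Of the other receptor genes of the IL-6 and IL-12 group Il11ra1, described above, and Il12rb1 were tested, and neither passed. Il12rb1, shared by the receptors of IL-12 and IL-23, averaged 0.914 ± 0.0550 CPM with NETs and 0.864 ± 0.232 CPM in control medium. Exons of Il6ra, Il4ra and Il1rap overlap genes on the opposite strand (Gm42809, Gm44876 and Gm20319), of which the highest, Gm42809 at Il6ra, averaged 0.482 CPM with NETs and 0.214 CPM in control medium.

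Il22ra1, the epithelial receptor chain of IL-22, had 5.71, 4.15 and 4.69 CPM with NETs, against 8.03, 8.65 and 8.68 CPM in control medium (1.73-fold lower, adjusted p = 6.87e-05 in edgeR). Its partner Il10rb, which also serves IL-10, averaged 21.8 ± 1.28 CPM with NETs and 20.8 ± 2.46 CPM in control medium and did not pass (95% interval of the log2 fold change -0.12 to 0.25). Per kb, Il10rb message was 2.69, 3.62 and 2.93 times that of Il22ra1 in the NETs libraries and 1.85, 1.76 and 1.40 times in the control libraries. Il20rb, a chain for IL-19, IL-20 and IL-24, averaged 1.69 ± 0.351 CPM with NETs and 1.36 ± 0.274 CPM in control medium without passing. Il20ra, which is among the chains that pair with Il20rb, had at most 2 counts in any library.

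Il17ra, the chain common to receptors of the IL-17 family, fell by a small but tightly measured amount, to 68.7, 69.8 and 70.8 CPM with NETs, against 84.3, 83.1 and 85.0 CPM in control medium (1.21-fold lower, log2 fold change -0.27 ± 0.05 SE, adjusted p = 0.000292 in edgeR). Il17rc, which pairs with it for IL-17A and IL-17F, averaged 18.0 ± 1.39 CPM with NETs and 18.8 ± 2.79 CPM in control medium (95% interval -0.27 to 0.15). Il17re, the chain for IL-17C on epithelium, averaged 16.7 ± 1.34 CPM with NETs and 18.6 ± 1.01 CPM in control medium (95% interval -0.32 to 0.02). Il17rd, a member also known as Sef that dampens FGF signalling, averaged 5.93 ± 0.306 CPM with NETs and 5.80 ± 0.334 CPM in control medium (95% interval -0.21 to 0.27). These 3 did not pass the test. The ligand genes Il17a, Il17c and Il17f had 0 to 5 counts in any library.

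**Figure D4:**
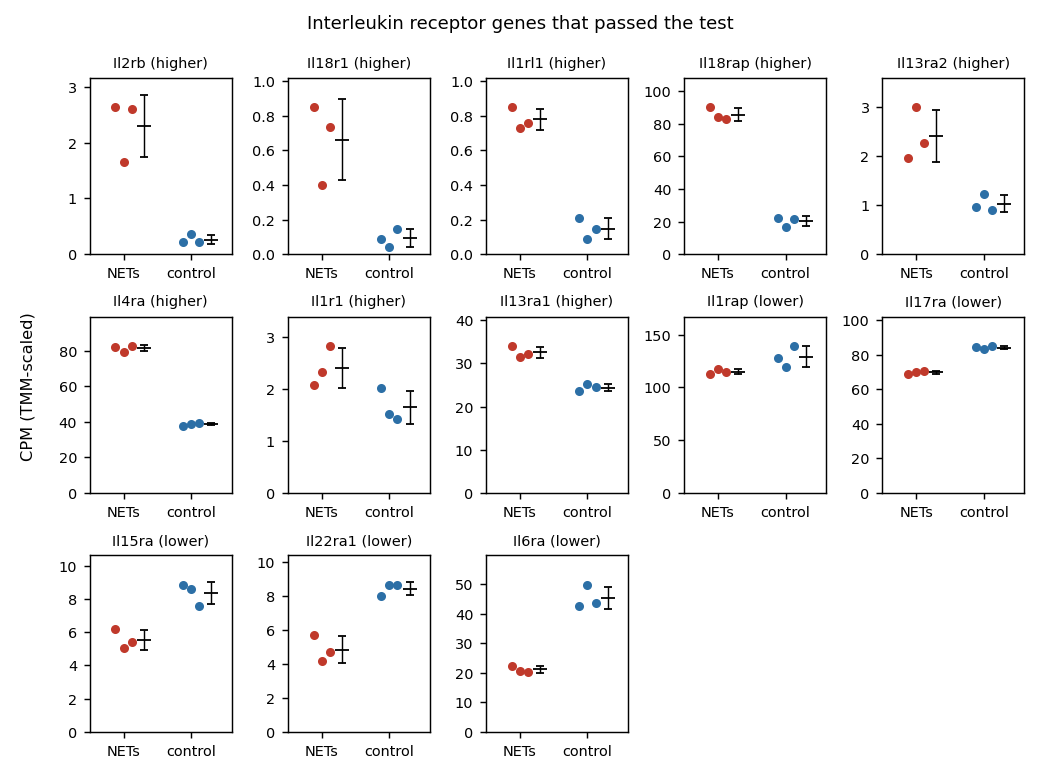
TMM-scaled CPM in each library (points) with mean and SD (bars) for the 13 receptor genes that passed the test, NETs on the left and control medium on the right of each panel, each on its own linear axis from 0, ordered from the largest rise to the largest fall. Il4ra sits between 79.3 and 82.6 CPM with NETs and between 37.9 and 39.1 CPM in control medium, and Il1r1 shows the narrowest gap between its groups relative to their spread.

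Levels can be compared between genes per kb of exon. Il6st led the receptor genes in both media, at 21.5 ± 1.06 CPM per kb with NETs and 19.8 ± 0.516 CPM per kb in control medium (mean ± SD, n = 3). Il4ra stood in place 2 with NETs and place 6 in control medium, at 13.5 ± 0.291 and 6.44 ± 0.116 CPM per kb. Il18rap stood in place 3 with NETs and place 11 in control medium, at 12.7 ± 0.585 and 3.01 ± 0.447 CPM per kb. With NETs the levels of Il4ra and Il18rap differed by less than the sum of their SDs. Il6ra stood in place 10 with NETs and place 8 in control medium, at 2.44 ± 0.127 and 5.25 ± 0.447 CPM per kb. Summed over all 40 genes, receptor message was 741, 711 and 733 CPM in the NETs libraries and 654, 642 and 649 CPM in the control libraries, and summed ligand message was 783, 801 and 785 CPM in the NETs libraries and 782, 768 and 861 CPM in the control libraries.

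**Figure D5:**
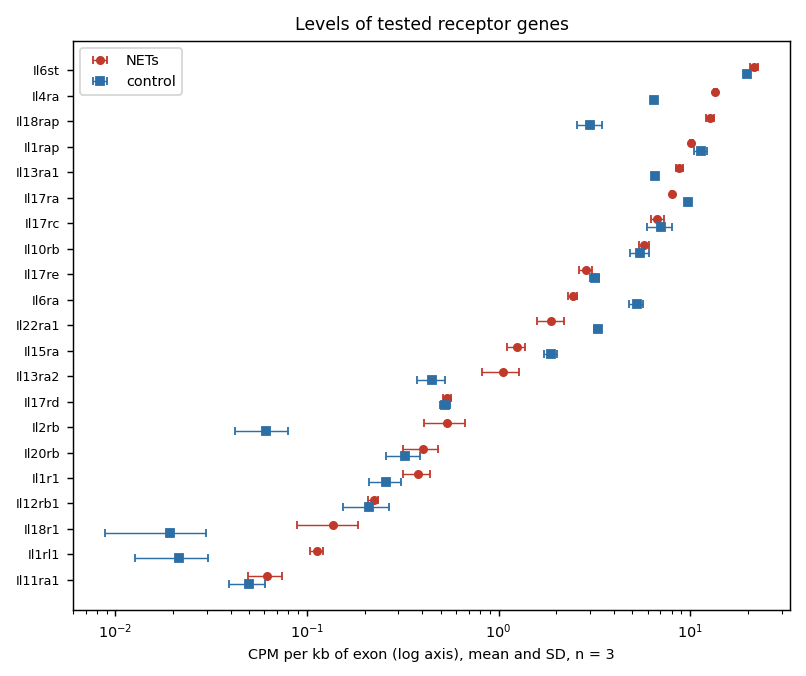
Mean CPM per kb of exon with SD (n = 3, log axis) of the 21 tested receptor genes with NETs (circles) and in control medium (squares), ordered by the level with NETs. The levels with NETs run from 0.0616 CPM per kb for Il11ra1 to 21.5 CPM per kb for Il6st, and the widest gaps between the media are those of Il2rb, Il18r1, Il1rl1 and Il18rap.

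The other 46 interleukin-named genes were too low to test. No read was counted in any library for 19 of them. These were the ligand genes Il3, Il4, Il9, Il12a, Il13, Il17a, Il1f10, Il21, Il22, Il22b, Il25 and Il36b and the receptor genes Il1rapl1, Il1rapl2, Il5ra, Il10ra, Il11ra2, Il12rb2 and Il31ra. The remaining 27 had at most 8 counts in any library and were, beside those named above, Il2, Il5, Il10, Il16, Il17b, Il19, Il20, Il27 and Il31 among the ligand genes, and Il3ra, Il7r, Il9r, Il17rb, Il21r, Il23r and Il27ra among the receptor genes.

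Genes that work with the interleukins without bearing their name were listed in 6 groups of 66 genes in all, of which 55 were tested. Of these 14 rose and 17 fell, so that 31 of 55 passed, where 38.9% of all tested genes passed (20.2% higher and 18.7% lower). Of the 53 with all 6 libraries over 0.203 CPM 56.6% passed, where 40.8% of all genes of that kind did. Among 10 receptor chains and receptor-like proteins 6 were tested, and 3 rose and 2 fell (83.3%). The oncostatin M receptor gene Osmr averaged 23.8 ± 1.10 CPM with NETs and 14.4 ± 0.971 CPM in control medium (1.66-fold, adjusted p = 9.36e-07 in edgeR). Cntfr rose by 0.55 on the log2 scale, whereas Sigirr, an inhibitory member of the IL-1 receptor family, fell by 0.55 and the interferon lambda receptor gene Ifnlr1 fell by 0.52. Of 8 partner ligands 7 were tested, and 2 rose and 3 fell (71.4%). Tslp, an epithelial cytokine that acts through Il7r and Crlf2, averaged 26.4 ± 0.595 CPM with NETs and 74.8 ± 7.44 CPM in control medium (2.83-fold lower, adjusted p = 3.52e-11 in edgeR). Csf2 fell by 0.68 and Lif rose by 0.32 on the log2 scale. The other gene that rose was Osm, the gene of oncostatin M, singled out after its values were seen. It had 1.76, 1.39 and 1.16 CPM with NETs, against 0, 0.0885 and 0.0363 CPM in control medium; no control library was over 0.203 CPM, so it had to come out higher.

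Of 17 adaptors and kinases of IL-1 and IL-17 receptors 16 were tested, and 3 rose and 4 fell. That is 43.8%, near the 38.9% of all tested genes that passed. Myd88 fell by 0.33, the Act1 gene Traf3ip2 by 0.24 and Tollip by 0.20 on the log2 scale, while the feedback ribonuclease gene Zc3h12a rose by 0.33, Traf6 by 0.17 and Tab3 by 0.17. Of 11 JAK and STAT genes 10 were tested, and 3 rose and 3 fell (60%). Jak1 averaged 175 ± 6.09 CPM with NETs and 132 ± 1.48 CPM in control medium (1.32-fold, adjusted p = 2.97e-06 in edgeR). Stat3 rose by 0.31 and Jak3 by 0.30 on the log2 scale, and Stat5a fell by 0.36, Tyk2 by 0.34 and Stat5b by 0.25. Among 8 SOCS feedback genes, 2 rose and 2 fell (50%). Cish, a target of STAT5, averaged 13.6 ± 0.521 CPM with NETs and 7.41 ± 0.458 CPM in control medium (1.84-fold, adjusted p = 1.02e-06 in edgeR), and Socs2, another STAT5 target, averaged 16.8 ± 1.27 CPM with NETs and 34.1 ± 2.11 CPM in control medium (2.02-fold lower, adjusted p = 1.11e-08 in edgeR). Socs6 rose by 0.15 and Socs7 fell by 0.19 on the log2 scale. Of 12 genes for the processing of IL-1 family cytokines 8 were tested, and 1 rose and 3 fell (50%). Capn2, a calpain gene, rose by 0.23, the DNA sensor gene Aim2 fell by 1.16 and S100a13, which takes part in the release of IL-1 alpha, fell by 0.42 on the log2 scale. Casp4, the other gene that fell, averaged 2.42 ± 0.417 CPM with NETs and 4.87 ± 0.443 CPM in control medium (1.99-fold lower, adjusted p = 7.08e-05 in edgeR). Casp1 averaged 1.72 ± 0.175 CPM with NETs and 1.98 ± 0.318 CPM in control medium without passing, and the inflammasome adaptor gene Pycard had no count in any library.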

How the data were processed

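Messenger RNA of 410.4 cells was sequenced in 6 libraries, grouped by the treatment in the labels. The authors deposited raw counts per gene symbol. STAR 2.7.10a, Subread 2.0.3, featureCounts and mm10 are named by the submitters' processing notes (strand setting, multi-mapping, annotation release: not given in the sources used here). Even numbers made up 74.8% to 78.4% of the counts of 1 to 20 in each library, so both mates of a pair appear to have been counted. Libraries held 31119105 to 64431811 counts.

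Groups were compared with edgeR 4.0.16 in R 4.3.3 (filterByExpr with a minimum count of 10, TMM, robust glmQLFit, glmQLFTest) with the medium as the only term, adjusted by Benjamini-Hochberg over 13956 genes and called at 0.05. Each standard error was derived from the log2 fold change and the F value. The common biological coefficient of variation was 0.0620. No library was a repeat of another, as chi-square over degrees of freedom was 9.76 to 25.6 between replicates. Members, roles and lists were chosen with earlier results of these data known. Every member was accounted for, all that passed were described, and for each partner list up to 6 genes that passed with a mean of at least 5 CPM were named, those with the largest changes, except 1 gene that is not reported here. Exons of 12 tested members overlap another gene of the table. Alternatives were other scalings, filters and tests (DESeq2 1.42.0, limma 3.58.1), halved counts, a replicate block and leaving out each library.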

Additional observations from a re-analysis of the deposited data

How the results depend on the processing

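Each of 16 alternatives was run, and none turned a direction of a member that passed. Of the 18 members that passed, 15 kept their call in every alternative that tested them, and Il1r1, Il18bp and Il1rap each lost it in at least 1, as given above. Among those 15, Il18r1 and Il36g were tested in only 14 of the 16 alternatives. With halved counts they did not reach the filter. With a filter of 1 CPM in 3 libraries neither they nor Il1rl1 did. Of 19 members that did not pass, Il6st gained a call. The number of members that passed was 16 to 18 when each library was left out in turn, with 4 ligand genes throughout and 11 to 13 receptor genes. It was 14 of 27 with a filter of 1 CPM in 3 libraries and 16 of 33 with halved counts. Over all genes it was 4321 to 5181 with a library left out, and over the pathway partners 25 to 31. The replicate numbers showed no clear pairing of the libraries. Correlations of same-numbered deviations ran from -0.06 to 0.12 across genes and those of other pairs from -0.17 to 0.11, and 3 libraries a group cannot exclude pairing. With the replicate block 18 members passed, 17 of them the same, and over all genes 5682 passed, against 5430 without it. Depth limits Il18r1, Il1rl1, Il2rb, Il33 and Il36g, whose lower group stood near the detection limit.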

Other observations

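Of the members with counts too low to test, some leaned higher and some lower with NETs, and a few are given here. Il27ra, a receptor chain of IL-27, had 6, 2 and 6 counts with NETs and 4, 0 and 0 counts in control medium. Il23r, the specific chain of the IL-23 receptor, had 0, 4 and 8 counts with NETs and 0, 0 and 2 counts in control medium. Il1r2, the IL-1 decoy receptor gene of the chromosome 1 cluster, had 0, 2 and 2 counts with NETs and 0, 0 and 0 counts in control medium. Il17rb, Il36rn and Il22ra2 leaned the other way, each with 0, 0 and 0 counts with NETs. In control medium they had 0, 4 and 1 counts, 2, 0 and 2 counts, and 0, 0 and 4 counts.

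The IL-36 genes Il36g and Il36a and the antagonist gene Il1rn are neighbours on chromosome 2, and unlike around the IL-1 receptor cluster none of the 4 tested genes within 500 kb outside this stretch passed the test. Psd4 averaged 2.05 CPM with NETs and 2.05 CPM in control medium (adjusted p = 0.988 in edgeR), and Ehmt1 84.8 CPM with NETs and 77.8 CPM in control medium (adjusted p = 0.0565 in edgeR). Whether the regions differ was not tested.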
